A study of Mus musculus with 56 samples.

Results

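The layer identity factors of cortical excitatory neurons are 9 of the 18088 genes in the deposited table, chosen by name: Cux1, Cux2 and Rorb mark the upper layers, and Fezf2, Bcl11b, Tbr1, Foxp2, Tle4 and Etv1 mark the deep layers. All 9 were among the 17778 genes tested, so none was lost to the filter on low values. They were measured by RNA sequencing in 56 mice (C57BL/6J), from prefrontal cortex taken on postnatal day 25. The mice were heterozygous for Scn2a (HT, 29 mice), which encodes the neuronal sodium channel NaV1.2, or wild type (WT, 27 mice). From postnatal day 3 to day 24, for 3 weeks, pups received vehicle, fluoxetine or lithium in the milk of their mothers. Fluoxetine is an antidepressant that blocks serotonin reuptake, and lithium is used to stabilise mood and inhibits the kinase GSK3. The 12 groups are the combinations of genotype, treatment and sex: HT vehicle females, HT vehicle males, HT fluoxetine males, HT lithium females, HT lithium males, WT vehicle females, WT fluoxetine males and WT lithium males with 5 mice each, and WT vehicle males, WT lithium females, and the fluoxetine females of both genotypes with 4 each. The Scn2a allele, the doses and the dams were not given in the sources used here. If littermates share a group, the tests of drug effects give p-values that are too small.

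The cerebral cortex is built of layers of excitatory neurons that are born in sequence, deep layers before upper layers, and each layer keeps a characteristic set of transcription factors after birth. Upper layer neurons project mostly within the cortex, and layer 4 receives input from the thalamus. Deep layer neurons project mostly to subcortical targets such as the spinal cord, pons, striatum and thalamus. Several of these factors repress each other during development: Fezf2 and Bcl11b favour the subcerebral fate of layer 5, and Tbr1 favours the corticothalamic fate of layer 6 and represses Fezf2. Some are also expressed outside the cortex, Bcl11b and Foxp2 by projection neurons of the striatum and Tbr1 by projection neurons of the olfactory bulb.

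Scn2a itself separated the genotypes, at 8554 ± 423 in HT mice (SD, n = 29, range 7583 to 9619) and 12311 ± 780 in WT mice (n = 27, range 9727 to 13381), with no overlap. These and all values below are deposited values, which are read counts divided by one size factor per library. The libraries held 24.3 to 36.4 M reads each (median 27.9 M). The defining genes of cortical excitatory neurons (Slc17a7, Neurod2, Neurod6, Emx1, Camk2a, Nrgn) were present in every library. Transcripts of neighbouring regions were unevenly present: a score over 10 genes of striatal projection neurons lay more than 1 log2 unit above its median in 8 libraries, and a score over 12 genes of the olfactory bulb and migrating neuroblasts did so in 12. No gene of either list was at 0 throughout. The libraries above 1 in either score numbered 18, with 6 in each treatment, and several results, though not all, are given with and without them. In whole tissue, fewer cells of a layer and less RNA per cell cannot be told apart.

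The 9 genes lie on 6 chromosomes of the GRCm38 build (GENCODE vM21), all as protein-coding genes. Cux1 (ENSMUSG00000029705, chr5:136248135-136567490, minus strand) and Cux2 (ENSMUSG00000042589, chr5:121856366-122050102, minus strand) encode homeodomain factors of layers 2 to 4. Rorb (ENSMUSG00000036192, chr19:18930605-19111196, minus strand) encodes an orphan nuclear receptor that marks layer 4. Fezf2 (ENSMUSG00000021743, chr14:12342094-12348189, minus strand), a zinc finger factor, and Bcl11b (ENSMUSG00000048251, chr12:107910403-108003602, minus strand), also known as Ctip2, specify subcerebral neurons of layer 5. Etv1 (ENSMUSG00000004151, chr12:38779380-38870484, plus strand) encodes an ETS factor of layer 5. Tbr1 (ENSMUSG00000035033, chr2:61802930-61814114, plus strand), a T-box factor, Foxp2 (ENSMUSG00000029563, chr6:14901349-15441977, plus strand), a forkhead factor, and Tle4 (ENSMUSG00000024642, chr19:14448150-14598051, minus strand), a Groucho co-repressor, mark layer 6. Annotated antisense genes overlap Cux1 (Gm16599) and Cux2 (Gm15637 and Gm3970), and it is not given whether the counting used the strand, so the values of these genes carry that uncertainty.

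Per kilobase of the union of its exons, Tbr1 had the highest level, 734 ± 55.3 (SD over 56 mice). Cux2 followed at 357 ± 24.8, Bcl11b at 312 ± 42.9, Fezf2 at 286 ± 38.0, Tle4 at 250 ± 22.4 and Etv1 at 212 ± 16.4. Cux1 stood at 132 ± 9.24 and Rorb at 107.6 ± 12.2, and Foxp2 was lowest at 21.8 ± 4.86 per kilobase. The levels of Tbr1 (573.5 to 817 per kilobase) and of Foxp2 (14.8 to 39.1) did not overlap with those of any other factor. Cux2 and Bcl11b, Bcl11b and Fezf2, Fezf2 and Tle4, Tle4 and Etv1, and Cux1 and Rorb were neighbours whose ranges over mice overlapped. The order depends on the length used: per kilobase of the longest coding transcript, Etv1 moved up to the second place at 428 ± 33.1. Within a gene, the spread of the deposited value over all 56 mice was smallest for Cux2 (coefficient of variation 6.96%) and Cux1 (7.0%), and largest for Bcl11b (13.7%) and Foxp2 (22.3%).

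Under lithium, over both genotypes, Rorb fell and Tbr1 rose, and the other 7 factors did not pass the test, in a comparison in which limma called 16.2% of all genes tested at a Benjamini-Hochberg adjusted p below 0.05. By direction, all 3 upper factors had a lower estimate under lithium (median log2 change -0.08), and 5 of the 6 deep factors had a higher one (median 0.10), while the median over all genes was 0.00. The count of 2 called factors of 9 is to be read against that background, and it was 4 without HT vehicle male 3 or without WT vehicle male 2, when Cux1 and Tle4 passed as well.

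Rorb had the clearest change. In WT mice its value ran from 1097 to 1461 under vehicle (median 1344, n = 9) and from 1142 to 1241 under lithium (median 1226, n = 9). In HT mice it ran from 1052 to 1369 under vehicle (median 1257, n = 10) and from 910 to 1164 under lithium (median 1021, n = 10). All 19 lithium libraries lay below the mean of the vehicle group of their own genotype and sex, 6 of them, all HT, lay below the lowest vehicle library of either genotype, and 13 of the 19 vehicle libraries lay above the highest lithium library. The log2 change was -0.19 ± 0.04 (SE; limma, adjusted p = 0.00065), so that the value fell by 12.3%. It was called under each of the 11 alternative settings and without any single library, between -0.20 and -0.18. Rorb fell by 0.18 on the log2 scale without the 18 libraries of high marker scores (adjusted p = 0.0092) and by 0.20 with both scores as covariates, so the change was as large without those libraries.

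The other upper layer factors had smaller differences. Cux1 had values of 2413 to 3025 in WT vehicle mice (median 2821) and of 2354 to 2721 in WT lithium mice (median 2548), and 9 of 9 lithium libraries lay below the mean of their vehicle group. In HT mice it ran from 2279 to 2895 under vehicle and from 2347 to 2975 under lithium, ranges that overlap almost fully. Its log2 change over both genotypes, -0.08 ± 0.03, missed the threshold (limma, adjusted p = 0.053). That call turns on the test: Cux1 passed in 3 of the 11 alternative settings, with TMM rescaling (adjusted p = 0.043), with edgeR (0.044) and with DESeq2 (0.041). Over the 11 settings its log2 change ran from -0.09 to -0.06, with adjusted p-values up to 0.22. With both marker scores as covariates the adjusted p was 0.055. Cux1 also passed in 14 of the 56 fits that left out 1 library (adjusted p from 0.02 to 0.094 over the 56). Cux2 differed least of the upper factors, with a log2 change of -0.04 ± 0.03 and a 95% interval of -0.09 to 0.02.

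Among the deep layer factors, Tbr1 rose. In WT mice its value ran from 3146 to 4252 under vehicle (median 3822) and from 3907 to 4484 under lithium (median 4346), and 6 of 9 lithium libraries lay above the highest vehicle library. In HT mice the ranges were 3363 to 4353 under vehicle (median 3977) and 3239 to 4427 under lithium (median 4116), and they overlapped almost fully. Over both genotypes 17 of 19 lithium libraries lay above the mean of their own vehicle group, the log2 change was 0.11 ± 0.03 (limma, adjusted p = 0.015), and it was called under all 11 alternative settings and without any single library. The olfactory marker score, against which Tbr1 runs within groups, was lower under lithium: its 12 genes all had a lower estimate (median log2 change -0.20, none called), with summed values of 4399 to 20643 under lithium (median 5126) and 4475 to 21326 under vehicle (median 6281). With both scores as covariates the change of Tbr1 was 0.09 (adjusted p = 0.0085), and without the high-score libraries it was 0.11 (adjusted p = 0.012).

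The remaining deep factors did not pass over both genotypes. Tle4 had a log2 change of 0.09 ± 0.04 (limma, adjusted p = 0.088), Bcl11b of 0.11 ± 0.06 (adjusted p = 0.27), Fezf2 of 0.09 ± 0.06 (adjusted p = 0.33) and Foxp2 of 0.15 ± 0.09 (adjusted p = 0.29). Etv1 had a lower estimate, -0.03 ± 0.04 (adjusted p = 0.64), unlike the other deep factors. The 95% intervals of Bcl11b (-0.02 to 0.24), Fezf2 (-0.03 to 0.22) and Foxp2 (-0.04 to 0.33) all include the estimate for Tbr1.

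**Figure D1:**
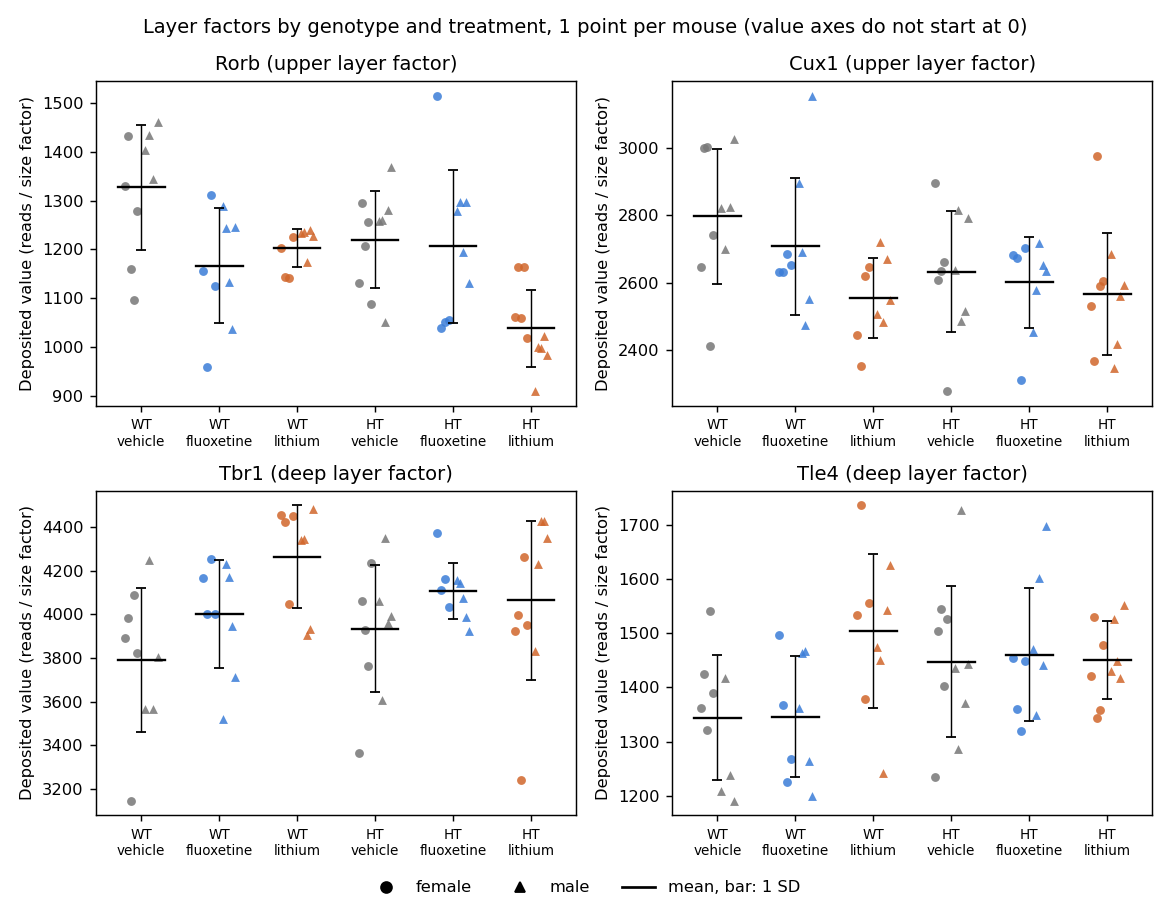
Deposited values of Rorb, Cux1, Tbr1 and Tle4 (vertical axes, reads divided by a size factor, not starting at 0) by genotype and treatment (horizontal axis), with 1 point per mouse, circles for females, triangles for males, and the mean with 1 SD. Rorb under lithium sits at 1142 to 1241 in WT and at 910 to 1164 in HT mice, and Tbr1 is highest in WT lithium mice, with a median of 4346.

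The promoters of Rorb and Tle4 are shown because, of the 3 factors called under lithium in any comparison, these have a start whose upstream bases lie outside annotated exons. They are RefSeq sequences on GRCm38.p6, where 8 of the 9 factors matched an entry and Foxp2 did not, and the 250 bases before the start are given on the strand of the gene, 5′ to 3′. Capitals mark the GC box, GGGCGG on either strand.
Rorb, chr19:19111197-19111446, minus strand: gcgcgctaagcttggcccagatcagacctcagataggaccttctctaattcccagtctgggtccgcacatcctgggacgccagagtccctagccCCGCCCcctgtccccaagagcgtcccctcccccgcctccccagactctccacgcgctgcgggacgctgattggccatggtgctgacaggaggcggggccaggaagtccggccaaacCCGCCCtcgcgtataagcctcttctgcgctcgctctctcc
Tle4, chr19:14598184-14598433, minus strand: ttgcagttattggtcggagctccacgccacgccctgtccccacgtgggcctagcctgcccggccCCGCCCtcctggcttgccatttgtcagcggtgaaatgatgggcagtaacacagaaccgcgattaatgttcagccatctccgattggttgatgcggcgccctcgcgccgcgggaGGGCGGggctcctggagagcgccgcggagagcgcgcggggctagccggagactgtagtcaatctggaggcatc
Among all 32851 RefSeq promoter windows of 300 bases (250 before and 50 after the start), 35.7% held a GC box on either strand. G and C made up 63.7% of this window of Rorb and 65% of that of Tle4, beside a median of 52.7% over all windows. Neither printed promoter held a match to the other 7 motifs searched on both strands. These were the ROR element AGGTCA, present in 16.3% of all windows, the CUX element ATCGAT, present in 0.925%, and the T-box element AGGTGT, present in 13.7%. They also included the forkhead element TGTTTAC, present in 3.65% of all windows, the ETS element CCGGAAG, present in 8.86%, the TCF/LEF element ATCAAAG, present in 3.73%, and the TATA box, TATAAA, present in 13.6%. The window of Tbr1 held 1 GC box and lies within an annotated exon, so it is not printed. A second RefSeq start of Rorb, with its window at chr19:19001068-19001367, held none of the 8 motifs. Tle4 also has a second RefSeq start, with its window at chr19:14597164-14597463. That window held 2 GC boxes and lies partly within an annotated exon, so it is not printed. These matches describe letters in a window, and the expression values do not tell which start was used.

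In WT mice alone, lithium raised 2 of the 9 factors, both of layer 6, against 5.71% of all genes called. Tbr1 rose by 0.18 ± 0.05 on the log2 scale (limma, adjusted p = 0.022, higher in 9 of 9 libraries). Over the 11 alternative settings the log2 change of Tbr1 ran from 0.13 to 0.18, and each of them called it. By limma, that call was lost, at adjusted p-values up to 0.06, without WT vehicle female 3, WT vehicle male 1 or WT vehicle male 3. Tle4 ran from 1192 to 1541 under vehicle (median 1363) and from 1242 to 1735 under lithium (median 1534), with 4 of 9 lithium libraries above the highest vehicle library. Its log2 change was 0.17 ± 0.05 (adjusted p = 0.046, higher in 7 of 9 libraries), and the call depended on the setting. Tle4 passed in 5 of 11 alternative settings and lost its call without 14 of the 18 libraries compared, the exceptions being WT lithium female 3, WT lithium male 3, WT vehicle female 4 and WT vehicle male 2, with adjusted p-values up to 0.12. The change was 0.13 (adjusted p = 0.073) with both marker scores as covariates and 0.12 (adjusted p = 0.26) without the high-score libraries. The 10 striatal genes all had a higher estimate under lithium in WT mice (median log2 change 0.28, none called), with summed values of 6831 to 20702 under lithium and 6414 to 12649 under vehicle. The 12 olfactory genes all had a lower one (median -0.58, none called), with sums of 4399 to 9437 under lithium and 4512 to 21326 under vehicle. Fezf2 had a log2 change of 0.20 ± 0.09 (adjusted p = 0.19) and Foxp2 of 0.22 ± 0.13 (adjusted p = 0.35). Rorb (-0.15 ± 0.06, adjusted p = 0.11) and Cux1 (-0.13 ± 0.05, adjusted p = 0.066) had lower estimates, each with 9 of 9 libraries below the mean of their vehicle group. Cux1 passed in 1 of 11 alternative settings (DESeq2, adjusted p = 0.044) and, by limma, without WT fluoxetine male 5 (adjusted p = 0.046) or WT vehicle female 4 (adjusted p = 0.027). Rorb passed in 1 of the 11, when only the groups compared were fitted (adjusted p = 0.036), and in none of the 56 omissions of a single library.

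In HT mice lithium lowered Rorb and no other factor passed, against 8.77% of all genes called. Rorb fell by 0.23 ± 0.05 on the log2 scale (limma, adjusted p = 0.0051, lower in 10 of 10 libraries), and it was called under all 11 alternatives, with the largest adjusted p, 0.049, without the high-score libraries. The estimates of Tbr1 (0.05 ± 0.05), Tle4 (0.01 ± 0.05) and Fezf2 (-0.01 ± 0.09) were small in HT mice, and Bcl11b had the largest positive one, 0.14 ± 0.09 (adjusted p = 0.34, higher in 9 of 10 libraries). The WT and HT effects of lithium were not shown to differ for any factor: the smallest adjusted p of the genotype by lithium interaction was 0.42, for Tle4 (HT effect minus WT effect -0.17 ± 0.07). The same test gave -0.13 ± 0.07 for Tbr1 (adjusted p = 0.46) and -0.08 ± 0.08 for Rorb (adjusted p = 0.71). Limma called 0% of all genes for this interaction, with 1934 genes at an unadjusted p below 0.05, edgeR and DESeq2 called no layer factor, and DESeq2 called 4 genes in all.

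**Figure D2:**
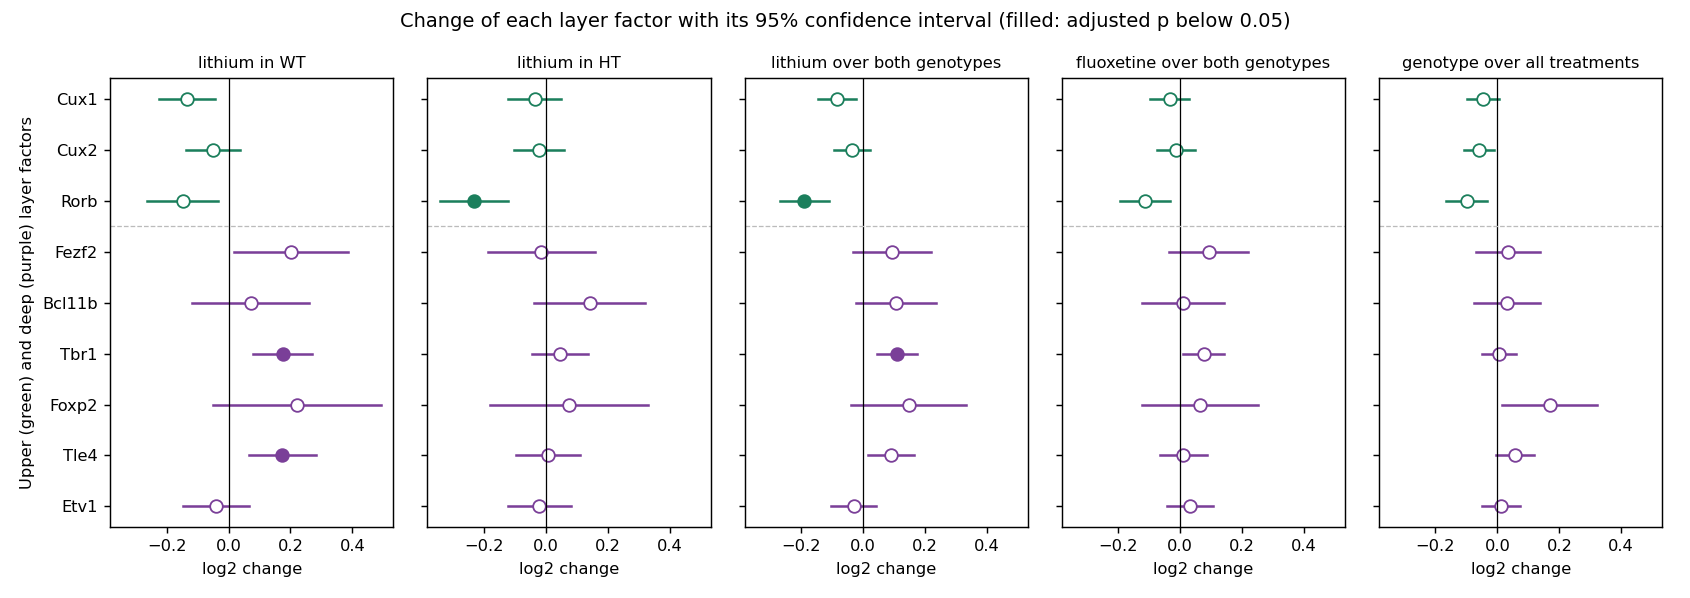
Log2 change (horizontal axis) of each of the 9 factors (vertical axis, upper layer in green, deep layer in purple) with its 95% confidence interval in 5 comparisons, filled where the adjusted p was below 0.05. Filled points are Tbr1 and Tle4 for lithium in WT mice, Rorb for lithium in HT mice, and Rorb and Tbr1 for lithium over both genotypes.

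By sex, the effect of lithium on Rorb in HT mice was called in males, where limma called 0.546% of all genes, and not in females, where it called 0.99%. In HT males Rorb was at 910, 1000, 999, 1023 and 985 under lithium and at 1258, 1260, 1052, 1281 and 1369 under vehicle, so that the 5 lithium values all lay below the 5 vehicle values (log2 change -0.33 ± 0.08, adjusted p = 0.03). In HT females it was at 1061, 1164, 1059, 1164 and 1019 under lithium and at 1131, 1296, 1208, 1257 and 1088 under vehicle, with overlap (log2 change -0.13 ± 0.08, adjusted p = 0.43). The difference between the sexes, 0.21 ± 0.11, did not pass (adjusted p = 1.0). None of the 5 tests of a sex difference (genotype under vehicle, and each drug in each genotype) called a layer factor, and each called 0% of all genes, with 364 to 1172 genes at an unadjusted p below 0.05. Their smallest unadjusted p among the factors was that of Cux2 for lithium in WT mice, where the female minus male difference was 0.28 ± 0.09 (unadjusted p = 0.0023, adjusted p = 0.74). Between the sexes over all groups no factor passed (smallest adjusted p 0.86, for Rorb at -0.05 ± 0.03, female minus male), and 0.197% of all genes did.

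Under fluoxetine no layer factor passed. Limma called 0.928% of all genes for fluoxetine over both genotypes, 0.146% in WT and 0.045% in HT mice. Rorb again had the lowest estimates, -0.11 ± 0.04 over both genotypes (adjusted p = 0.16) and -0.20 ± 0.06 in WT mice (adjusted p = 0.12), where its value ran from 960 to 1311 under fluoxetine (median 1155, n = 9), with 8 of 9 libraries below the mean of their vehicle group. In HT mice Rorb ran from 1040 to 1515 under fluoxetine (median 1194), a range set at its upper end by HT fluoxetine female 1, and the estimate was -0.03 ± 0.06. Without that library Rorb passed over both genotypes, with a log2 change of -0.15 (adjusted p = 0.023). The other 55 fits that left out 1 library did not call Rorb over both genotypes (adjusted p up to 0.27). It passed in 0 of the 11 alternative settings, where the log2 change ran from -0.12 to -0.07 (adjusted p from 0.091 to 0.56). Tbr1 had an estimate of 0.08 ± 0.03 over both genotypes (adjusted p = 0.28, higher in 14 of 18 libraries). Fluoxetine and lithium were compared with the same vehicle mice, so their estimates are not independent: over both genotypes they were -0.11 and -0.19 for Rorb, 0.08 and 0.11 for Tbr1, -0.03 and -0.08 for Cux1 and 0.01 and 0.09 for Tle4. The genotype by fluoxetine interaction called 0% of all genes, with 967 at an unadjusted p below 0.05, and its smallest adjusted p among the factors was 0.89 (Rorb, 0.17 ± 0.08).

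Between the genotypes no layer factor passed either. HT against WT, limma called 0.00562% of all genes under vehicle, 0.0112% under fluoxetine, 0.0337% under lithium and 0.152% over all treatments. Rorb was lower in HT mice over all treatments by estimate (log2 change -0.10 ± 0.03, adjusted p = 0.29, below the WT mean of the same treatment and sex in 22 of 29 libraries), as was Cux2 (-0.06 ± 0.02, adjusted p = 0.46), while Foxp2 was higher (0.17 ± 0.08, adjusted p = 0.54). Under lithium all 10 HT libraries lay below the WT mean for Rorb, with an estimate of -0.21 ± 0.06 (adjusted p = 0.21). It was called in 1 of the 11 alternative settings, a fit of the lithium groups alone (adjusted p = 0.0041). That fit called 16 genes in all, beside 6 in the main fit. In the other settings the adjusted p reached 0.44, and 0 of the 56 single omissions called it. Without HT fluoxetine female 1 the estimate of Rorb over all treatments was -0.12 and passed (adjusted p = 0.042). The other 55 single omissions did not call Rorb over all treatments (adjusted p up to 0.43). It passed in 0 of the 11 alternative settings, where the estimate ran from -0.10 to -0.05 (adjusted p from 0.24 to 0.8). Under vehicle the 3 upper factors were lower and 5 of 6 deep factors higher in HT mice by estimate, with adjusted p-values of 0.40 or more: the values were -0.13 ± 0.06 for Rorb, -0.10 ± 0.04 for Cux2, -0.09 ± 0.04 for Cux1 and 0.11 ± 0.05 for Tle4. All 10 striatal genes also had a higher estimate in HT than in WT vehicle mice (median 0.23, none called), with summed values of 6603 to 28215 in HT and 6414 to 12649 in WT mice, and their part in these differences was not tested.

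An index of the balance between layers was taken for each mouse as the mean log2 value of the 3 upper factors minus that of the 6 deep factors. It is described with no test. The index was 0.65 ± 0.20 under vehicle (SD, n = 19), 0.56 ± 0.14 under fluoxetine (n = 18) and 0.47 ± 0.14 under lithium (n = 19). By genotype it was highest in WT vehicle mice, at 0.75 ± 0.17 (range 0.41 to 0.98, n = 9), and lowest in HT lithium mice, at 0.43 ± 0.12 (range 0.26 to 0.64, n = 10). HT vehicle mice stood at 0.56 ± 0.19 (n = 10) and WT lithium mice at 0.52 ± 0.16 (n = 9), and the ranges of all 6 groups overlapped. Lithium minus vehicle was -0.24 in WT and -0.14 in HT mice, beside a within-group SD of 0.15. Without Bcl11b and Foxp2, which the striatum also expresses, these differences were -0.24 and -0.10. That index still holds factors that varied with the striatal score within groups, Tle4 (r = 0.58), Cux2 (r = -0.53) and Etv1 (r = -0.46).

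**Figure D3:**
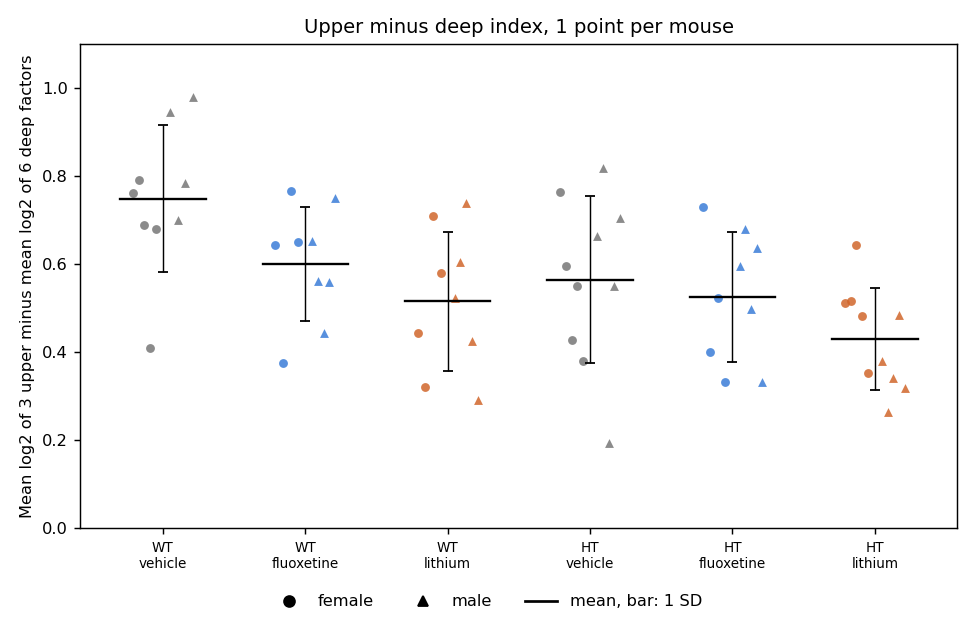
Upper minus deep index of each mouse (vertical axis, log2 units) by genotype and treatment (horizontal axis), with circles for females, triangles for males, and the mean with 1 SD. WT vehicle mice have the highest mean, 0.75, and HT lithium mice the lowest, 0.43, with overlapping ranges.

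Other layer genes did not all follow the factors under lithium, where 16.2% of all genes were called. Of 14 other upper layer genes, 6 had a higher and 8 a lower estimate over both genotypes (median log2 change -0.02), and 2 passed in opposite directions. Pou3f3, also known as Brn1, a POU factor of upper layer neurons, fell by 0.12 ± 0.03 on the log2 scale (limma, adjusted p = 0.0011), and it also fell over both genotypes under fluoxetine, by 0.11 ± 0.03 (adjusted p = 0.043). Scnn1a, a channel subunit that marks layer 4 as Rorb does, rose by 0.32 ± 0.08 (adjusted p = 0.0049) from a low mean value of 65.7. Of 19 other deep layer genes, 15 had a higher and 4 a lower estimate (median 0.04), and 2 passed, both higher. These were Bcl6, a transcriptional repressor (0.16 ± 0.04, adjusted p = 0.0069), and Ccn2, known as Ctgf, a secreted protein of layer 6b (0.33 ± 0.11, adjusted p = 0.043). None of the 6 genes shared by all excitatory neurons passed (2 higher, 4 lower, median -0.02).

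Within groups, the factors varied together between mice in a pattern that partly followed the layers. Residuals of log2 values from the 12 group means were correlated over 56 mice for all 36 pairs, with p-values from 100000 permutations within groups, adjusted over the 36 pairs. Of the 36, 15 passed by Pearson r and 13 by Spearman rho. The share of pairs of other genes that would pass was not computed, so these counts have no background to be read against. The 15 were 6 of 15 pairs of deep factors and 1 of 3 pairs of upper factors, all positive, and 8 of 18 pairs of an upper and a deep factor, 7 negative and 1 positive.

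Of the deep pairs, the 6 that passed joined Fezf2, Tbr1, Tle4, Foxp2 and Bcl11b. Foxp2 and Tle4 had r = 0.70 (rho = 0.68, permutation p = 1e-05, the smallest these permutations can give, adjusted p = 9e-05), and r was 0.67 without the 2 mice farthest from the median of Foxp2 and 0.80 without the high-score libraries. Tbr1 and Tle4 had r = 0.54 (rho = 0.51, permutation p = 8e-05, adjusted p = 0.0004), with 0.55 and 0.59 under the same omissions. Fezf2 and Tbr1 had r = 0.69 (rho = 0.61, permutation p = 2e-05, adjusted p = 0.00014), and r was 0.63 and 0.44. Fezf2 and Tle4 had r = 0.41 (rho = 0.41, permutation p = 0.003, adjusted p = 0.011), with 0.38 and 0.43. Bcl11b and Foxp2 had r = 0.65 (rho = 0.51, permutation p = 3e-05, adjusted p = 0.00018), and Bcl11b and Tle4 had r = 0.44 (rho = 0.36, permutation p = 0.0041, adjusted p = 0.011). These last relations rest on the high-score libraries in part: without the 18, r was 0.18 for Bcl11b with Foxp2 and 0.13 for Bcl11b with Tle4. Tbr1 and Foxp2, both of layer 6, had r = 0.11 (rho = 0.08, permutation p = 0.43, adjusted p = 0.56), and 0.55 without the high-score libraries. No pair of Etv1 with another deep factor passed.

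Across layers, Cux2 ran against Bcl11b (r = -0.77, rho = -0.75, permutation p = 1e-05, adjusted p = 9e-05) and Foxp2 (r = -0.63, rho = -0.63, same p-values). Without the high-score libraries r was -0.71 and -0.52. Cux1 ran against Fezf2 (r = -0.74, rho = -0.71, permutation p = 1e-05, adjusted p = 9e-05) and Tbr1 (r = -0.60, rho = -0.51, permutation p = 9e-05, adjusted p = 0.0004), and without those libraries r was -0.51 and -0.18. Cux1 and Cux2, which share layers, had r = -0.05 (rho = -0.02, permutation p = 0.72, adjusted p = 0.74), while Cux2 and Rorb had r = 0.49 (rho = 0.44, permutation p = 0.0039, adjusted p = 0.011). Cux1 and Rorb had r = 0.27 (rho = 0.20, permutation p = 0.095, adjusted p = 0.19). Without the high-score libraries r was 0.33 for Cux1 with Cux2, 0.35 for Cux2 with Rorb and 0.56 for Cux1 with Rorb. The single positive pair across layers was Cux1 and Etv1, at r = 0.50 (rho = 0.48, permutation p = 0.0017, adjusted p = 0.0068).

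**Figure D4:**
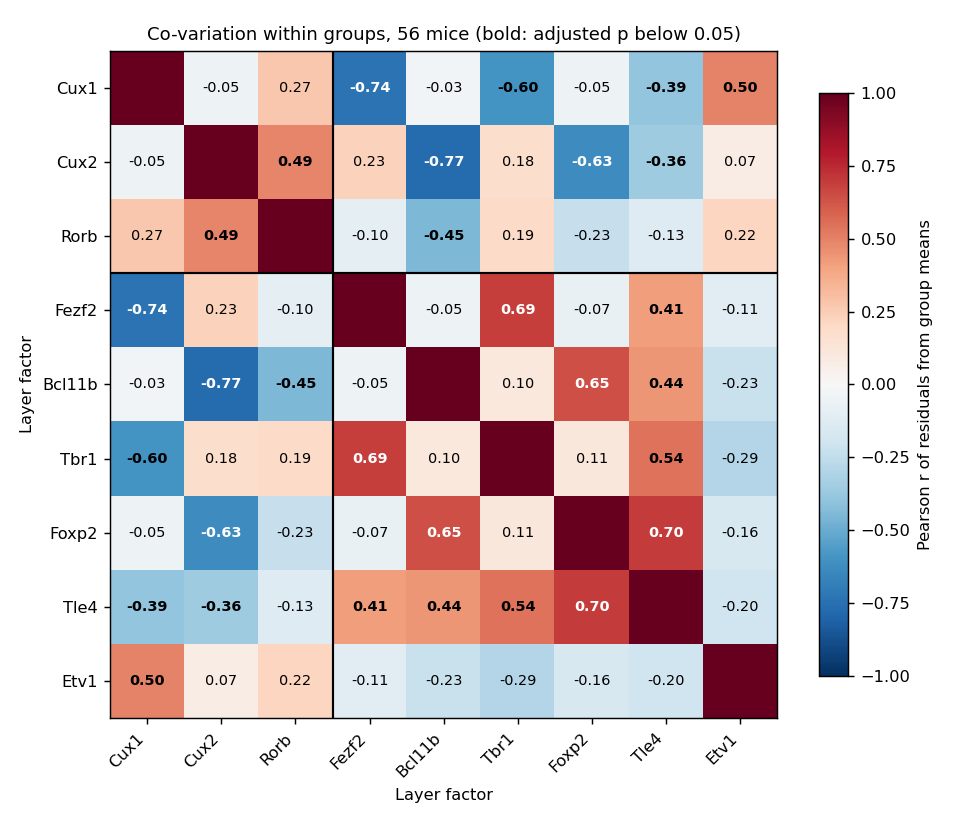
Pearson r between residuals of the 9 factors (both axes, upper layer factors first, black lines between the layers) from the 12 group means over 56 mice, from blue (negative) to red (positive), with r printed and bold where the adjusted p was below 0.05. Foxp2 with Tle4 reaches 0.70, and Cux2 with Bcl11b -0.77.

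The marker scores of neighbouring regions varied with most factors within groups. Of 18 relations between the 9 factors and the 2 scores, which were computed after the data had been seen, 11 passed. The share of other genes that would pass was not computed. Foxp2 followed the striatal score (r = 0.85, rho = 0.66, permutation p = 1e-05, adjusted p = 6e-05), as did Bcl11b (r = 0.67, rho = 0.65, same p-values) and Tle4 (r = 0.58, rho = 0.55, permutation p = 5e-05, adjusted p = 0.00018), while Cux2 ran against it (r = -0.53, rho = -0.55, permutation p = 3e-05, adjusted p = 0.00013). Without the 2 mice of the most extreme score, r was 0.80 for Foxp2, 0.60 for Bcl11b, 0.56 for Tle4 and -0.50 for Cux2. Tbr1 ran against the olfactory score (r = -0.64, rho = -0.60, permutation p = 1e-05, adjusted p = 6e-05), as did Cux2 (r = -0.60, rho = -0.56, permutation p = 6e-05, adjusted p = 0.00018), and Cux1 followed it (r = 0.56, rho = 0.54, permutation p = 0.00012, adjusted p = 0.00031). Without the 2 most extreme mice these were -0.55, -0.57 and 0.49. Over the 38 mice below 1 in both scores, r with the striatal score was 0.44 for Foxp2, 0.52 for Bcl11b, 0.47 for Tle4 and -0.73 for Cux2. With the olfactory score it was -0.29 for Tbr1, -0.39 for Cux2 and 0.23 for Cux1. Fezf2 also ran against the olfactory score (r = -0.46, permutation p = 0.0017, adjusted p = 0.0038), and Bcl11b followed it (r = 0.44, permutation p = 0.0042, adjusted p = 0.0076). Etv1 followed the olfactory score (r = 0.41, permutation p = 0.0073, adjusted p = 0.012) and ran against the striatal score (r = -0.46, permutation p = 0.0039, adjusted p = 0.0076). Over the 38 mice these were -0.24, 0.47, 0.15 and -0.31. Rorb ran against the olfactory score with r = -0.36 (permutation p = 0.034, adjusted p = 0.051) and rho = -0.36 (permutation p = 0.02, adjusted p = 0.029), so that it passed by rho and not by r. With the striatal score it had r = -0.21 (rho = -0.22, permutation p = 0.12, adjusted p = 0.16), and -0.48 over the 38 mice.

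**Figure D5:**
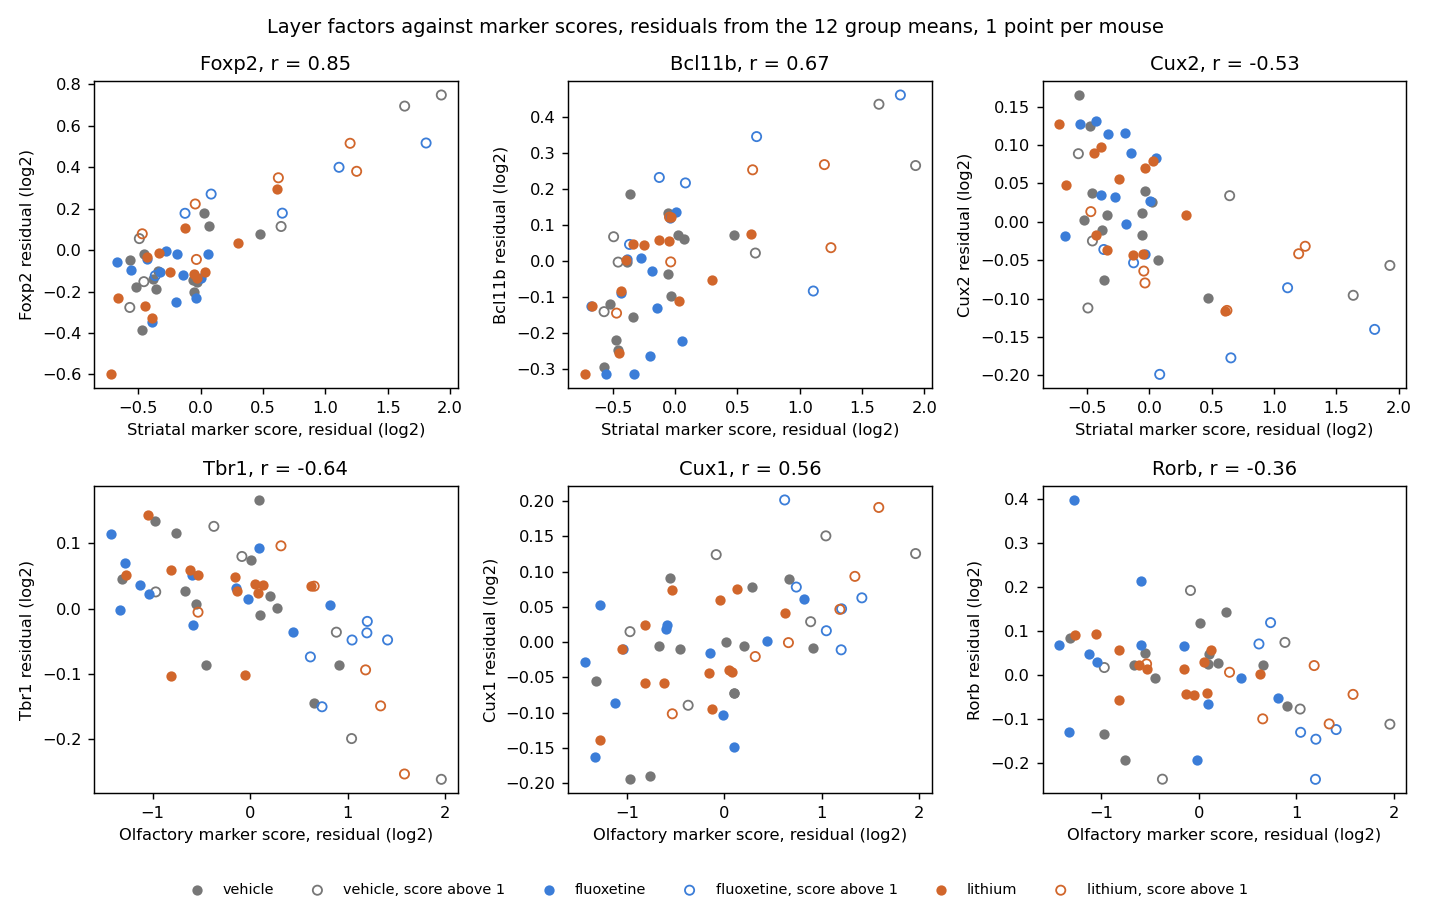
Residual log2 value of 6 factors (vertical axes) against the residual marker score (horizontal axes, log2 units), striatal in the upper panels for Foxp2, Bcl11b and Cux2 and olfactory in the lower panels for Tbr1, Cux1 and Rorb, with 1 point per mouse, coloured by treatment and open where either score is above 1. Foxp2 climbs with the striatal score (r = 0.85), and Tbr1 descends with the olfactory score (r = -0.64).

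The genes whose residuals were most like those of each factor were taken among 12722 genes with a mean value of at least 50, over the same 56 mice. For Foxp2 they were the striatal dopamine receptors Drd1 (r = 0.87) and Drd2 (0.85) and the adenosine receptor Adora2a (0.84). By rho these 3 were lower, at 0.72, 0.69 and 0.64, and the high-score libraries are among the 56 mice. For Tle4 they were Sulf1 (0.82), an extracellular sulfatase, Nxph3 (0.79) and Hs3st4 (0.79), the last a sulfotransferase on the deep layer list. For Cux2 they included Iqsec2 (0.86) and Camk2a (0.86). Camk2a encodes the alpha subunit of a kinase abundant at excitatory synapses. For Tbr1 they were Cadps2 (0.90), Prrt2 (0.88) and Pde1a (0.88), and for Fezf2 Tmem178 (0.86), Adgra1 (0.86) and Zdhhc22 (0.86). Bcl11b was closest to Mctp1 (0.87), Baiap3 (0.86) and Klhl13 (0.85), and Cux1 to the cholesterol transporter Abca1 (0.85), Qser1 (0.79) and Tcf12 (0.78). Etv1 was closest to Stxbp6 (0.83), Anp32e (0.78) and Fgf12 (0.78). Rorb had the weakest matches, Scyl3 (0.75), Mosmo (0.73) and Fam69a (0.72).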

How the data were processed

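Per the labels' protocols, RNA of the prefrontal cortex of 56 mice was sequenced with a kit that keeps the strand. Salmon 0.11.2, DESeq2 1.19.11, R 3.6.0 and the build GRCm38 are named per the submitters' processing notes, with no role given for each. The deposited value is a signal made by the authors: a read count divided by one size factor per library. A check of the values found whole multiples of one step in every library (tolerance 0.01 reads). In 3 libraries the step lay close to 1. Coordinates and symbols are from GENCODE vM21.

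In R 4.3.3, limma 3.58.1 (trend and robust settings) estimated the 12 group means of log2(value + 1), over 17778 genes with a value of at least 10 in at least 4 libraries. A gene passed at an adjusted p (Benjamini-Hochberg, over all of these) below 0.05. Fold changes are on the log2(value + 1) scale and weight the sexes equally. In a table simulated for lithium over both genotypes with 17778 genes, 53% of log2 changes of 0.2 and 83% of those of 0.5 were recovered, and 3.55% of the calls were false. The alternatives were voom weights in limma, TMM rescaling, pseudocounts of 5 and 0.5, no filter, a replicate block, a fit of only the groups compared, each library left out, both marker scores as covariates, leaving out 18 libraries with a score above 1, and edgeR 4.0.16 and DESeq2 1.42.0 on the recovered reads. A marker score is the mean log2 value of a list minus its median over libraries. The text names all 9 factors, called members of the layer lists, and the 3 genes most like each factor, of which some are not reported here. The 9 factors, the gene lists and the tests were chosen with earlier results of these data known, and the p-values should be read with that in mind. No litter or dam is named, so the p-values measure the spread between the mice sampled.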

Additional observations from a re-analysis of the deposited data

Results flagged for a closer look

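Single mice stood apart from the rest of their group in 11 of 120 checks (9 factors and the index in 12 groups of 4 or 5 mice), by a gap above the 95% critical value of Dixon's test, which chance exceeds in about 1 group in 20. No explanation was tested for any of them.

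For the upper factors, Cux1 was low in HT fluoxetine female 3, at 2311 beside 2673 to 2702 in the others of the group. Rorb was high in HT fluoxetine female 1, at 1515 beside 1040 to 1055, and low in WT lithium male 3, at 1175 beside 1228 to 1241. Among the deep factors, Fezf2 was high in HT fluoxetine female 3, at 1064 beside 839.2 to 869.4. Bcl11b was low in HT lithium male 1, at 2558 beside 2834 to 2940, and in WT vehicle female 1, at 2027 beside 2523 to 2725. Tbr1 was low in WT lithium female 3, at 4049 beside 4426 to 4456, and in WT vehicle female 3, at 3146 beside 3822 to 4088. Foxp2 was high in HT vehicle female 3, at 639.4 beside 313.7 to 344.6, and in HT vehicle male 3, at 546.9 beside 258.4 to 333.0. The upper minus deep index was low in WT vehicle female 4, at 0.4084 beside 0.6799 to 0.79.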

How the results depend on the processing

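Of the comparisons, 5 had a count of called layer factors that changed by more than 1.5 times under an alternative. For lithium in WT mice the count was 2, and 1 with TMM rescaling, with voom, with marker scores as covariates, without the libraries of high marker scores and with edgeR, each time with Tbr1 kept. It was 3 with DESeq2 and ran from 0 to 3 when 1 library was left out, with 3 without WT fluoxetine male 5 or WT vehicle female 4, where Cux1 also passed. For the genotypes under lithium it was 0, and 1 (Rorb) when only the groups compared were fitted. For the genotypes over all treatments and for fluoxetine over both genotypes it ran from 0 to 1 when 1 library was left out, the 1 being Rorb without HT fluoxetine female 1. For lithium over both genotypes it was 2 and ran from 2 to 4, with 4 without HT vehicle male 3 or WT vehicle male 2, where Cux1 and Tle4 also passed.

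With the replicate number as a block (replicate block), the count was 2 for lithium in WT mice, 1 in HT mice and 2 over both genotypes, as without it, and no call of a layer factor changed. The numbers do not pair the mice: residuals of libraries with the same number had a mean correlation of -0.002, and those with other numbers 0.0005. Over all genes, the number called for lithium was 1016 in WT mice and ran from 223 (without the high-score libraries) to 1152, 1560 in HT mice (561 to 2020), and 2872 over both genotypes (1265 to 3527). For fluoxetine over both genotypes it was 165 (10 to 315). No called direction was reversed under any of the 67 settings. Values that were not called changed sign 40 times under the other settings and 151 times when 1 library was left out, all within 0.80 SE of 0. No layer factor had a value below 243 in any library (Foxp2 in WT lithium male 3), so none was near the limit of detection at this depth.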

Other observations

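Genes of other cell types gave values that the layer factors do not share. Under lithium over both genotypes all 5 microglial genes had a lower estimate (median log2 change -0.09), and among them P2ry12, a purine receptor of resting microglia, fell by 0.20 ± 0.05 on the log2 scale (limma, adjusted p = 0.0032). Of 4 endothelial genes, Cldn5, a tight junction protein of brain capillaries, fell by 0.44 ± 0.08 on the log2 scale (adjusted p = 8.7e-05) and Flt1, a receptor for vascular endothelial growth factor, rose by 0.13 ± 0.04 (adjusted p = 0.0087). Of 5 astrocyte genes, 1 had a higher and 4 a lower estimate (median log2 change -0.04), and the higher one, Gjb6, a gap junction protein, rose by 0.17 ± 0.05 (adjusted p = 0.022). None of the 8 genes of GABA interneurons, 5 of oligodendrocytes, 4 of the hippocampus or 4 of the thalamus passed, with median log2 changes of -0.01, -0.02, 0.04 and -0.01.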
